A study of Mus musculus with 12 samples.

Results

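The genes described here make, break down or receive prostaglandins in the supporting cells of the embryonic mouse gonad. The list named 10 genes by their role in this pathway: Ptgs1, Ptgs2, Ptgds, Hpgds, Ptges, Ptgis, Ptgdr, Ptger2, Ptger4 and Hpgd. Every probe set annotated to 1 of them alone was taken, which gave 15 of the 44238 probe sets tested and 9 of the 17996 named genes. No probe set carried the symbol Ptgs1 in the annotation used, so this gene was not analysed here. The other 9 had between 1 and 3 probe sets each, and no probe set of theirs was left out for low signal. The members and the other gene lists used below were chosen with earlier results of these data known.

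Prostaglandins are short-range lipid signals made from arachidonic acid, which phospholipases free from the membrane. The cyclooxygenases encoded by Ptgs1 and Ptgs2 convert it to prostaglandin H2, and terminal synthases turn that into prostaglandin D2 (Ptgds and Hpgds), prostaglandin E2 (Ptges) or prostacyclin (Ptgis). Receptors at the cell surface read the products, and the dehydrogenase encoded by Hpgd inactivates them. In the fetal testis prostaglandin D2 is known as a Sertoli cell signal that acts beside Sox9, and Ptgds is known as a target of SOX9.

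The cells were somatic support cells, obtained by flow sorting from gonads of 2 ages, E11.5 and E12.5 (days of embryonic development). The 4 groups were XX E11.5 and XX E12.5, labelled as ovary, and XY E11.5 and XY E12.5, labelled as testis, with 3 pools of sorted cells in each and 1 array per pool. All groups came from 1 congenic FVB strain, so XX and XY cells alike carried the tyrosinase transgene Tg(Tyr)3412ARpw together with the reporter Tg(Sry-EGFP)92EI, in which Sry sequences drive EGFP. The labels name no treatment. Neither the cells kept by the sort gate nor the litters behind each pool are given, and a p-value here reflects only how far pools differed, which may be technical in part. The pools are bulk samples, in which fewer cells of a type and less RNA per cell cannot be told apart.

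Values are log2 signals per probe set. Array medians ran from 6.494 to 6.592, and the number of arrays limits the precision. At 5 probe sets of Y-linked genes that separated the sexes, the XX arrays gave 3.33 to 5.17, a measure of signal where the target is missing. Taking probe sets called for sex on both days favours low XX values, so signal without target can lie higher elsewhere. The sorted cells carried markers of the supporting lineage, as 9 of 10 Sertoli genes were higher in XY at E12.5 and 10 of 10 pregranulosa genes were lower. Pool 2 of XX E11.5 stood apart, with 14 endothelial markers averaging 1.76 log2 units and 10 interstitial mesenchyme markers 1.42 above their means over the 12 arrays.

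Between E11.5 and E12.5 the sexes parted at 3 members by large steps. Ptgds rose in XY, Ptgis fell in XY, and Hpgd fell in XX at the brighter of its probe sets. Ptges moved by a smaller step in XY. No probe set of Ptgs2, Hpgds, Ptgdr, Ptger2 or Ptger4 passed the threshold in any comparison (limma, Benjamini-Hochberg adjusted p under 0.05 over all 44238 probe sets).

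**Figure D1:**
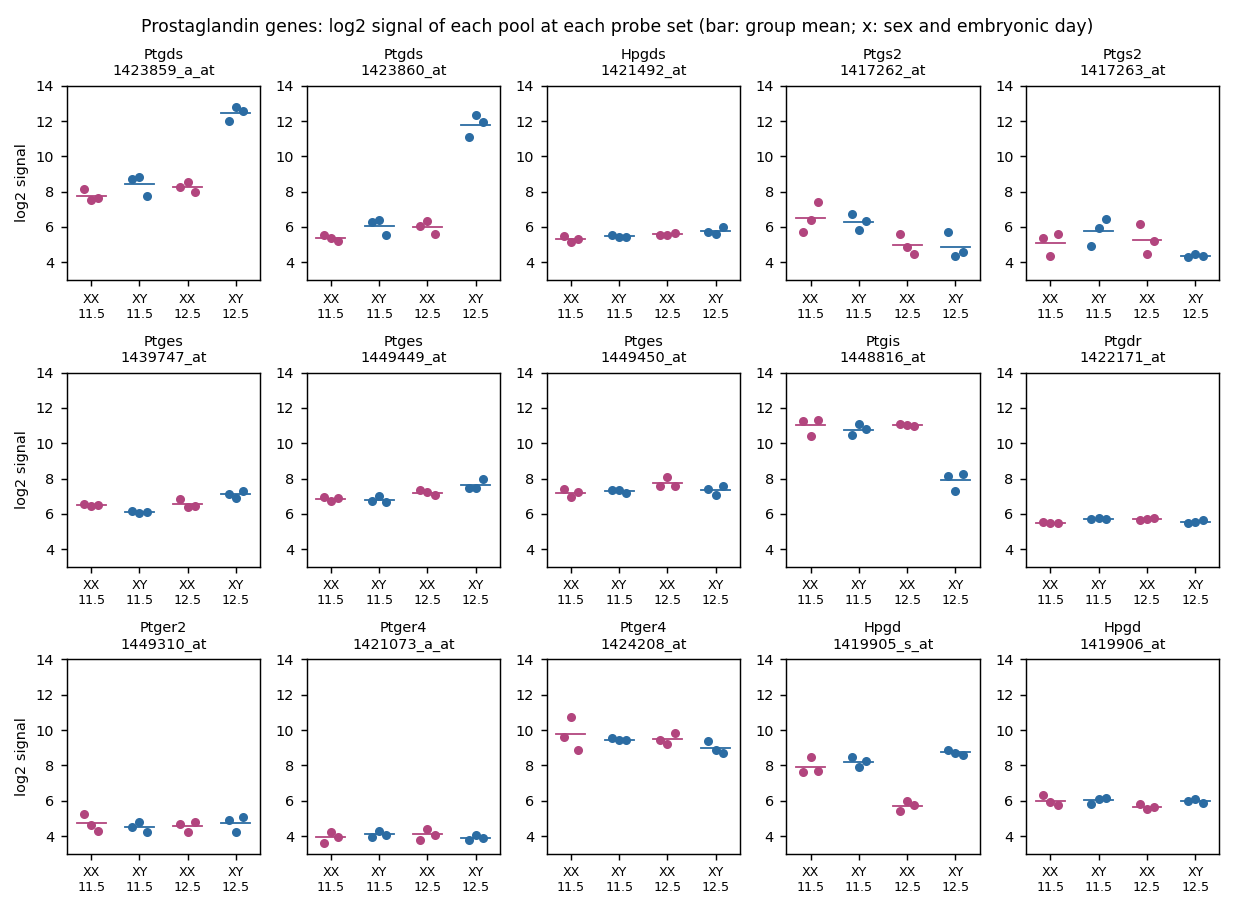
Log2 signal of each of the 12 pools at all 15 probe sets of the 9 measured genes, with XX pools in magenta, XY pools in blue and a bar at each group mean; the x axis gives sex and embryonic day. Both Ptgds probe sets stand high only in the 3 XY E12.5 pools, Ptgis stands low only there, and the first Hpgd probe set stands low only in the 3 XX E12.5 pools.

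At E11.5 no member was called between XY and XX cells. None of the 15 probe sets, and so none of the 9 genes, was called in limma, and 2 had an unadjusted p under 0.05. Of all probe sets 0.0678% were called, 0.0543% higher and 0.0136% lower in XY, and of all named genes 0.0834%, with 0.0667% higher. The groups did not overlap at 2 of the 15, against 10.1% of all probe sets. At E12.5, 5 of the 15 were called, 4 higher and 1 lower in XY, which is 4 of the 9 genes, 3 higher and 1 lower. Of all probe sets 7.72% were called in that comparison, 3.92% higher and 3.81% lower, and of all named genes 13.9%, with 7.10% higher and 6.87% lower. The groups did not overlap at 7 of the 15, against 28.6% of all. From E11.5 to E12.5 in XX, 1 of the 15 was called, with a fall, where 3.11% of all were called and 1.43% fell. In XY 5 of the 15 were called over the day, 4 with a rise and 1 with a fall, where 6.16% of all were called, 3.18% with a rise and 2.98% with a fall. The groups did not overlap over the day at 7 probe sets in XX and at 11 in XY, against 26.6% and 26.8% of all. The test of whether the sex difference itself differed between the days called 5 of the 15, 4 towards XY and 1 towards XX, against 1.75% of all, 0.796% and 0.954% in those directions. By gene 3 moved towards XY, where 1.68% of all named genes did. These comparisons share arrays, the sex difference at E12.5 and the change in XY both resting on the 3 XY E12.5 pools. As the members were chosen with earlier results of these data known, the counts only describe them beside the shares of all.

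**Figure D2:**
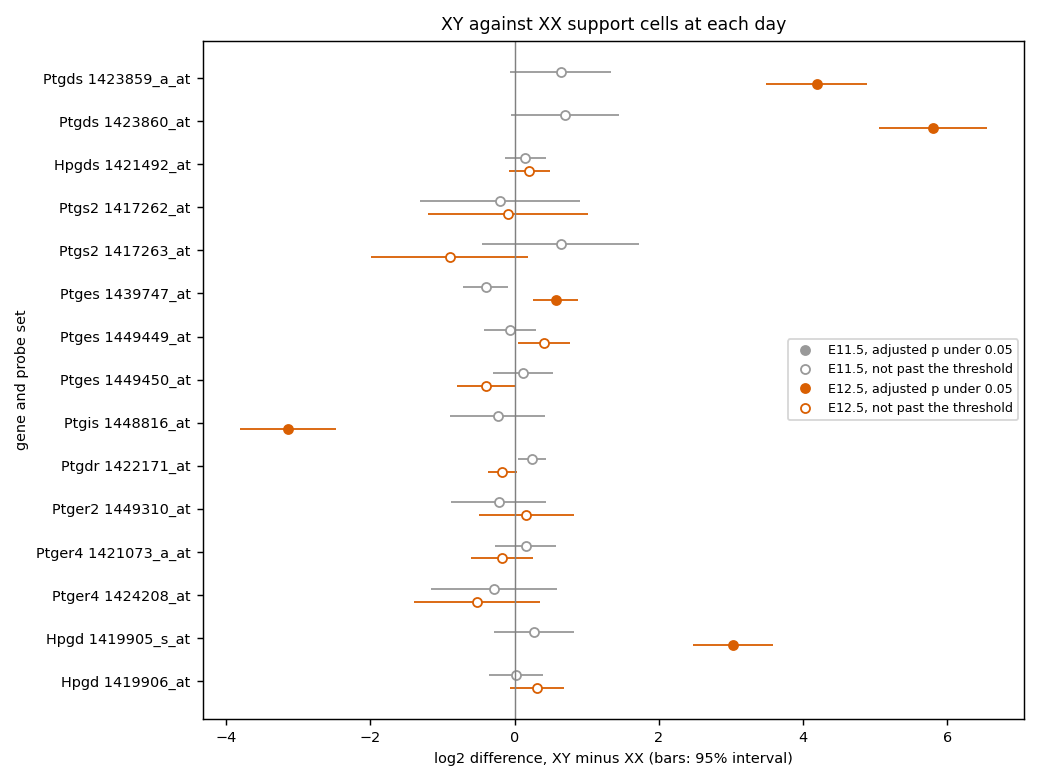
Log2 difference of XY minus XX at each of the 15 probe sets, with 95% intervals from limma, at E11.5 in grey and at E12.5 in orange; filled points passed the threshold. No E11.5 point is filled, and at E12.5 the 2 Ptgds points lie at 4.19 and 5.80, Hpgd at 3.03, Ptges at 0.57 and Ptgis at -3.14.

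The promoters of Ptgds and Hpgd are shown because these genes held the largest XY excess among the members at E12.5. Each window runs from 250 bases before to 50 after a transcription start in the RefSeq table for GRCm38.p6, on the strand of the gene, 5′ to 3′. The Ptgds window is chr2:25469700-25469999 on the minus strand and the Hpgd window chr8:56294302-56294601 on the plus strand. Capitals mark matches, on either strand, to ACAAAG or its variant form ACAATG, which are cores that SOX proteins bind, to AAGGTCA, a core bound by NR5A1, or to the TATA box written as TATAAA. No motif overlaps another in these windows.
Ptgds: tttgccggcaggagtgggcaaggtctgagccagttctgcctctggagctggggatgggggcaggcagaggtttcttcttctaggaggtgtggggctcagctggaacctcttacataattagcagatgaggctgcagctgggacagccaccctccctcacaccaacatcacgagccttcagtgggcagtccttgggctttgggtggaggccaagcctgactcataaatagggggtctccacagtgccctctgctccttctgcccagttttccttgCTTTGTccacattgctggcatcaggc
Hpgd: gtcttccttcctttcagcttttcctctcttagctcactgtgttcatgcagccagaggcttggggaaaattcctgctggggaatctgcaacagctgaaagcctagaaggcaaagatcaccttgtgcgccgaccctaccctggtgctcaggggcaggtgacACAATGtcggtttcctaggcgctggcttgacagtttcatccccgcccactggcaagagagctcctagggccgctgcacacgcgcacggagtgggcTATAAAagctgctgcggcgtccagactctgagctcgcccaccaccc
In the Ptgds window the match is CTTTGT, the reverse complement of ACAAAG, at bases 275 to 280 counted from 1 at the 5′ end of the line. In the Hpgd window ACAATG stands at bases 160 to 165 and TATAAA at bases 255 to 260. ACAAAG occurred on either strand in 18.7% of the 32851 promoter windows of the table, ACAATG in 12.6%, AAGGTCA in 4.72% and TATAAA in 13.6%. Of the 9 members with a window, Ptges and Ptger2 also held ACAATG, Ptger2 on both strands, and Hpgds, Ptgs1, Ptgs2, Ptgdr and Ptger4 held none of the 4 motifs. Ptgis was not in the table. GC content was 57.7% in the Ptgds window and 58% in the Hpgd window, against a median of 52.7% over all windows. A match describes letters only, and binding was not measured in these samples.

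Ptgs2, the inducible cyclooxygenase, gave no called difference at either of its probe sets. At its leading probe set (1417262_at, the brighter on average) it read 5.71, 6.41 and 7.40 in the XX E11.5 pools and 6.76, 5.83 and 6.34 in XY E11.5. At E12.5 it read 5.62, 4.87 and 4.45 in XX and 5.73, 4.35 and 4.59 in XY. In each sex the 3 E12.5 pools all lay below the 3 E11.5 pools, with differences of -1.53 ± 0.50 (SE) in XX and -1.42 ± 0.50 in XY that did not pass the threshold (adjusted p = 0.11 and 0.14). The E12.5 group means, 4.98 and 4.89, lay within the range seen without target. The second probe set (1417263_at) read 5.38, 4.37 and 5.61 in XX E11.5, 4.91, 5.94 and 6.43 in XY E11.5 and 6.15, 4.45 and 5.20 in XX E12.5. It differed by 0.15 ± 0.49 over the day in XX and by -1.39 ± 0.49 in XY (adjusted p = 0.89 and 0.14). Its 3 XY E12.5 pools sat close together at 4.28, 4.48 and 4.35, inside the range that the Y-linked probe sets gave without target. With the mean of both probe sets in place of each, the change in XY was -1.40 and passed the threshold (adjusted p = 0.038). Between the sexes the leading probe set differed by -0.20 ± 0.50 on the first day and by -0.09 ± 0.50 on the second, with a 95% interval on the second of -1.20 to 1.01.

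Ptgds, the lipocalin-type synthase of prostaglandin D2, gave the widest step of any member. At its leading probe set (1423859_a_at) it read 8.14, 7.55 and 7.64 in the XX E11.5 pools and 8.71, 8.81 and 7.75 in XY E11.5. At E12.5 it read 8.28, 8.54 and 8.0 in XX against 11.98, 12.82 and 12.59 in XY. Every XY E12.5 pool lay far above the other 9, and the remaining groups lay near each other. The XY level at E12.5 was 18.2-fold that of XX (95% interval 11.2 to 29.7; adjusted p = 4.6e-05) and 16.5-fold that of XY at E11.5 (10.1 to 26.8; adjusted p = 9.1e-05).

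The other Ptgds probe set (1423860_at) moved the same way by a wider step. It read 5.56, 5.40 and 5.19 in XX E11.5, 6.30, 6.40 and 5.53 in XY E11.5, 6.07, 6.32 and 5.62 in XX E12.5 and 11.08, 12.36 and 11.97 in XY E12.5. The XY rise over the day was 52.9-fold here (95% interval 31.4 to 89; adjusted p = 1.6e-05). Its lower values stand just above the 3.33 to 5.17 that Y-linked probe sets gave without target, where log2 signals compress differences. The sex difference grew from E11.5 to E12.5 by 3.55 ± 0.45 log2 units at the leading probe set and by 5.10 ± 0.48 at the other (adjusted p = 0.0038 and 0.00096). These interaction calls held in all of the 19 and 18 alternative settings and left-out pools tried on them.

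At E11.5 the Ptgds difference between the sexes was 0.64 ± 0.32 and 0.70 ± 0.34 at its probe sets and was not called (adjusted p = 0.76 and 0.75). XY E11.5 pools 1 and 2 read above all 3 XX pools at both probe sets, while pool 3 fell among them at the leading probe set and just below the highest XX pool at the other. The same pool was the lowest of the 3 for the Sertoli marker list, at 0.14 log2 units above the 12-array means against 1.05 and 0.55. In Dhh, the Sertoli ligand desert hedgehog, it read 7.34 against 9.76 and 8.53. Cbln4, also of that list, read 9.75 in this pool against 11.09 and 10.37. Sox9 and Fgf9 of that list did not place it lowest. At their brightest probe sets Sox9 read 11.50, 10.04 and 10.11 and Fgf9 12.21, 11.27 and 11.34 in pools 1 to 3. The part of this marker difference in the Ptgds values was not tested. In XX cells the change of Ptgds over the day was 0.50 ± 0.32 and 0.62 ± 0.34, neither past the threshold (adjusted p = 0.39 and 0.31).

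Sox9 stood high in XY a day before Ptgds did. Its brightest probe set read 11.50, 10.04 and 10.11 in the XY E11.5 pools and 10.04, 10.16 and 10.28 in XY E12.5, against 5.60 to 6.58 in the 6 XX pools. The day change of Sox9 in XY was -0.39 ± 0.38 (adjusted p = 0.64), so it had no called rise beside that of Ptgds. Sox8 and Sox10, the other SoxE genes, did rise in XY over the same day. Sox8 went from 6.60, 5.40 and 5.10 to 8.36, 8.17 and 8.42, a difference of 2.62 ± 0.35 (adjusted p = 0.0022). Sox10 went from 7.45, 7.65 and 7.50 to 8.37, 8.91 and 8.56 at 1 of its 3 probe sets (1.08 ± 0.15, adjusted p = 0.0031) and was not called at the other two. Sry, read at 8.20, 8.33 and 8.55 in XY E11.5, fell to 6.82, 7.14 and 7.09 in XY E12.5 (adjusted p = 0.0011), within the XX range of 6.82 to 7.39.

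**Figure D3:**
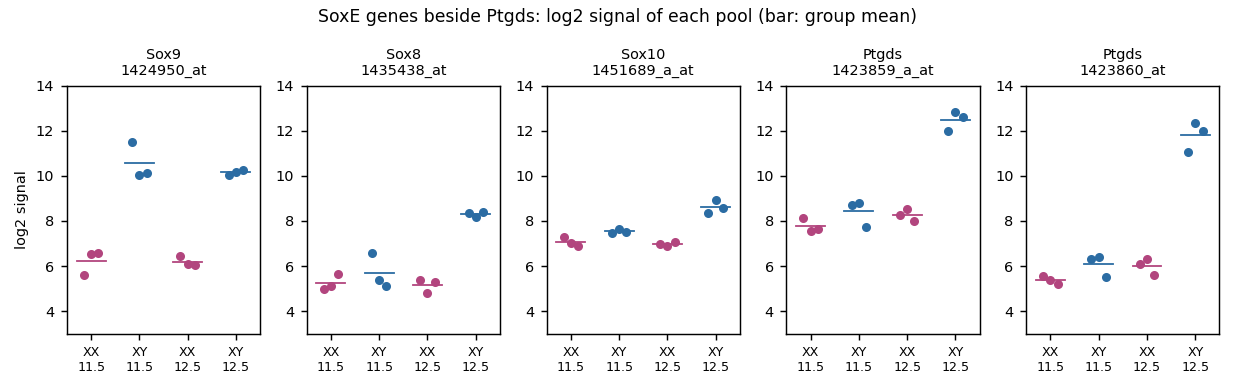
Log2 signal of each pool for 1 probe set each of Sox9, Sox8 and Sox10 and for both Ptgds probe sets, with XX in magenta, XY in blue, bars at group means and sex and day on the x axis. Sox9 is already at 10.04 to 11.50 in XY at E11.5, while Sox8, Sox10 and Ptgds are highest in the 3 XY E12.5 pools.

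Hpgds, the haematopoietic synthase of prostaglandin D2, known from mast cells and macrophages, held within a narrow range. It read 5.50, 5.14 and 5.30 in XX E11.5, 5.52, 5.43 and 5.44 in XY E11.5, 5.54, 5.54 and 5.66 in XX E12.5 and 5.74, 5.62 and 6.0 in XY E12.5. The 12 values span less than 1 log2 unit. The XY minus XX difference at E12.5 was 0.21 with a 95% interval of -0.08 to 0.49 (adjusted p = 0.44). The change over the day in XY was 0.32 ± 0.13 and missed the threshold (adjusted p = 0.19). Whether values this near to those of probe sets without target reflect a transcript was not tested. The mast cell marker Cpa3 read 5.24 to 5.77 over the 12 arrays, and limma called 0 of 12 mast cell and platelet markers and 0 of 15 macrophage markers for sex at E12.5, with 0 and 3 at an unadjusted p under 0.05. The macrophage list nevertheless had separate pool means of 6.82 to 6.98 in XX and 7.23 to 7.50 in XY. Over the day in XY limma called 1 of 15 macrophage markers, with a rise, and 0 of 12 mast cell and platelet markers. At their brightest probe sets 7 and 2 had an unadjusted p under 0.05 in limma, with median changes of 0.78 and 0.10. Of all named genes 13.9% were called for sex at E12.5 and 10.7% over the day in XY. The part of such cells in the Hpgds values was not tested.

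Ptges, the inducible synthase of prostaglandin E2, rose in XY at 2 of its 3 probe sets. At 1439747_at it read 6.16, 6.07 and 6.08 in XY E11.5 and 7.14, 6.91 and 7.30 in XY E12.5, against 6.55, 6.44 and 6.52 in XX E11.5 and 6.82, 6.37 and 6.43 in XX E12.5. XY pools thus lay below all XX pools at E11.5 and above all at E12.5. The XY rise was 2.02-fold (95% interval 1.62 to 2.5; adjusted p = 0.0029) and the XY excess at E12.5 1.49-fold (1.2 to 1.85; adjusted p = 0.033). The E11.5 difference of -0.40 ± 0.14 was not called (adjusted p = 0.65). The change in the sex difference was 0.97 ± 0.20 (adjusted p = 0.04).

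The other Ptges probe sets differed from that picture in part. At 1449449_at the XY rise was 1.76-fold (95% interval 1.37 to 2.27; adjusted p = 0.017), from 6.73, 7.01 and 6.66 to 7.44, 7.46 and 7.96. At the leading probe set (1449450_at) XY went from 7.33, 7.36 and 7.20 to 7.42, 7.07 and 7.59, a change of 0.06 ± 0.18 (adjusted p = 0.9), and the difference of the sexes at E12.5 had the opposite sign, -0.39 ± 0.18 (adjusted p = 0.28). The sex difference of 1439747_at at E12.5 lost its call without XX E12.5 pool 2 or 3 (0.49 and 0.52) and in the XY group of that day without pool 1 or 3 (0.56 and 0.48), with adjusted p of 0.099 to 0.12, and in a fit to the compared arrays alone (adjusted p = 0.1). Its change in the sex difference lost its call without 9 of the 12 pools, the exceptions being XX E12.5 pool 1 and, in XY, pool 1 of E11.5 and pool 2 of E12.5, with values of 0.88 to 1.01 and adjusted p up to 0.11, and with a trended variance prior (adjusted p = 0.055). The rise of 1449449_at lost its call without XY E11.5 pool 1 or 3 (0.78 and 0.75; adjusted p = 0.052 and 0.069), and in the absence of pool 3 of XY E12.5 it was 0.65, not past the threshold (adjusted p = 0.05), nor was it past it in a fit to the compared arrays alone (adjusted p = 0.077).

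Ptgis, the prostacyclin synthase and a member of the cytochrome P450 family, was the member that fell in XY. It read 11.28, 10.41 and 11.32 in XX E11.5, 10.47, 11.06 and 10.78 in XY E11.5 and 11.09, 11.04 and 10.97 in XX E12.5. In XY E12.5 it read 8.14, 7.30 and 8.23, below all other pools. XY cells at E12.5 had 8.82-fold less than XX (95% interval 5.59 to 13.9; adjusted p = 0.00017) and 7.37-fold less than XY cells a day earlier (4.66 to 11.6; adjusted p = 0.00049). The sexes differed by -0.24 ± 0.30 at E11.5 (adjusted p = 0.87), and the change in XX was 0.02 ± 0.30 (adjusted p = 0.97), with a 95% interval of -0.64 to 0.68. The growth of the sex difference was -2.91 ± 0.42 (adjusted p = 0.0075).

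Prostacyclin synthase is known from endothelium and smooth muscle. Endothelial and interstitial mesenchyme markers are given beside it, and no separate list for smooth muscle was used. The 14 endothelial markers had pool means of 6.30 to 6.82 in XX E12.5 and 6.41 to 7.06 in XY E12.5, and 0 of them were called between these groups in limma and 0 had an unadjusted p under 0.05, with a median difference of 0.12. Pecam1, a defining endothelial gene, read 4.69 to 5.39 over all 12 arrays, close to the range of probe sets without target. Cdh5, the endothelial cadherin, read 5.53, 6.08 and 6.92 in XX E12.5 and 7.32, 8.49 and 6.26 in XY E12.5. In XX E11.5 pool 2 Cdh5 read 8.81 while Pecam1 read only 5.39, so little can be read from this Pecam1 probe set. Of 10 mesenchyme markers, 2 were higher and 2 lower in XY at E12.5, with pool means of 8.06 to 8.52 in XX and 7.99 to 8.47 in XY. In XX E11.5 pool 2, which held the most endothelial signal, Ptgis was the lowest of its group at 10.41. For the pregranulosa list that pool was also the lowest of its group. It lay at -0.47 log2 units from the 12-array means, against 0.26 and 0.55. The part of other cells, or of fewer support cells, in the Ptgis values was not tested.

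Of the receptors, Ptgdr encodes the DP receptor through which prostaglandin D2 acts. It read 5.51, 5.47 and 5.47 in XX E11.5, 5.72, 5.75 and 5.71 in XY E11.5, 5.67, 5.72 and 5.79 in XX E12.5 and 5.46, 5.53 and 5.67 in XY E12.5. The groups were tight, and XY lay above XX at E11.5 without overlap, but the difference of 0.24 ± 0.09 did not pass the threshold (adjusted p = 0.68). At E12.5 it was -0.17 ± 0.09 (adjusted p = 0.33). The 95% interval at E12.5 ran from -0.37 to 0.03. All values, 5.46 to 5.79, lay just above the range without target, where a narrow interval cannot bound a change of the transcript.

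Ptger2 and Ptger4 encode the EP2 and EP4 receptors of prostaglandin E2, which raise cyclic AMP. Ptger2 read 4.20 to 5.27 over the 12 arrays, almost wholly within the range of the Y-linked probe sets without target. Its sex difference at E12.5 was 0.16 ± 0.30 (adjusted p = 0.86), and no level above background can be read from it. The probe sets of Ptger4 lay far apart. One (1421073_a_at) read 3.61 to 4.39 on every array, within that same range. The leading one (1424208_at) read 9.63, 10.76 and 8.88 in XX E11.5, 9.54, 9.41 and 9.44 in XY E11.5, 9.46, 9.22 and 9.82 in XX E12.5 and 9.38, 8.85 and 8.72 in XY E12.5. The sexes overlapped on both days and differed by -0.29 ± 0.39 and -0.52 ± 0.39 (adjusted p = 0.87 and 0.55).

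The highest Ptger4 value, 10.76, was that of XX E11.5 pool 2, the pool with high endothelial and mesenchyme markers. Without it the E11.5 difference was 0.21 instead of -0.29, uncalled either way, and the day change in XX 0.25 instead of -0.26. Ptprc, the pan-leukocyte gene, also read highest there, at 8.74 against 4.68 to 6.98 in the other 11 pools. Csf1r, like Ptprc on the macrophage list, did not, at 11.41 there and 11.53 in XX E11.5 pool 1. The 15 macrophage markers averaged 0.65 log2 units above their 12-array means there. They averaged 0.54 above in XY E12.5 pool 3, where Ptger4 read 8.72. The part of other cells in this Ptger4 value was not tested.

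Hpgd, the dehydrogenase that begins the breakdown of prostaglandins, had a called change over the day in XX and none in XY. At its leading probe set (1419905_s_at) it read 7.62, 8.50 and 7.69 in XX E11.5 and 8.45, 7.90 and 8.27 in XY E11.5. At E12.5 it read 5.40, 5.99 and 5.73 in XX and 8.89, 8.72 and 8.60 in XY. All 3 XX E12.5 pools lay below the other 9. The fall in XX was 4.67-fold (95% interval 3.18 to 6.87; adjusted p = 0.004), and the XY level at E12.5 was 8.17-fold that of XX (5.56 to 12; adjusted p = 7.7e-05). In XY the difference over the day was 0.53 ± 0.25 (95% interval -0.02 to 1.09) and was not called (adjusted p = 0.27). The 3 XY E12.5 pools nevertheless all lay above the 3 XY E11.5 pools. The growth of the sex difference was 2.76 ± 0.35 (adjusted p = 0.0041). The calls of this probe set held without any 1 of the 12 pools, and without XX E11.5 pool 2 the fall in XX was -1.94 on the log2 scale.

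The second Hpgd probe set did not show this step. It read 6.33, 5.92 and 5.74 in XX E11.5, 5.80, 6.10 and 6.15 in XY E11.5, 5.83, 5.52 and 5.65 in XX E12.5 and 6.0, 6.09 and 5.85 in XY E12.5. Its XY minus XX difference at E12.5 was 0.31 ± 0.17 (adjusted p = 0.34) and its change in XX -0.33 ± 0.17 (adjusted p = 0.28). Both probe sets were annotated to the same source sequence, and the suffix _s_at of the first marks probes that can match more than 1 transcript. With the mean of both the difference at E12.5 was 1.67 and the fall in XX -1.28, both called (adjusted p = 2.2e-05 and 0.0014).

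**Figure D4:**
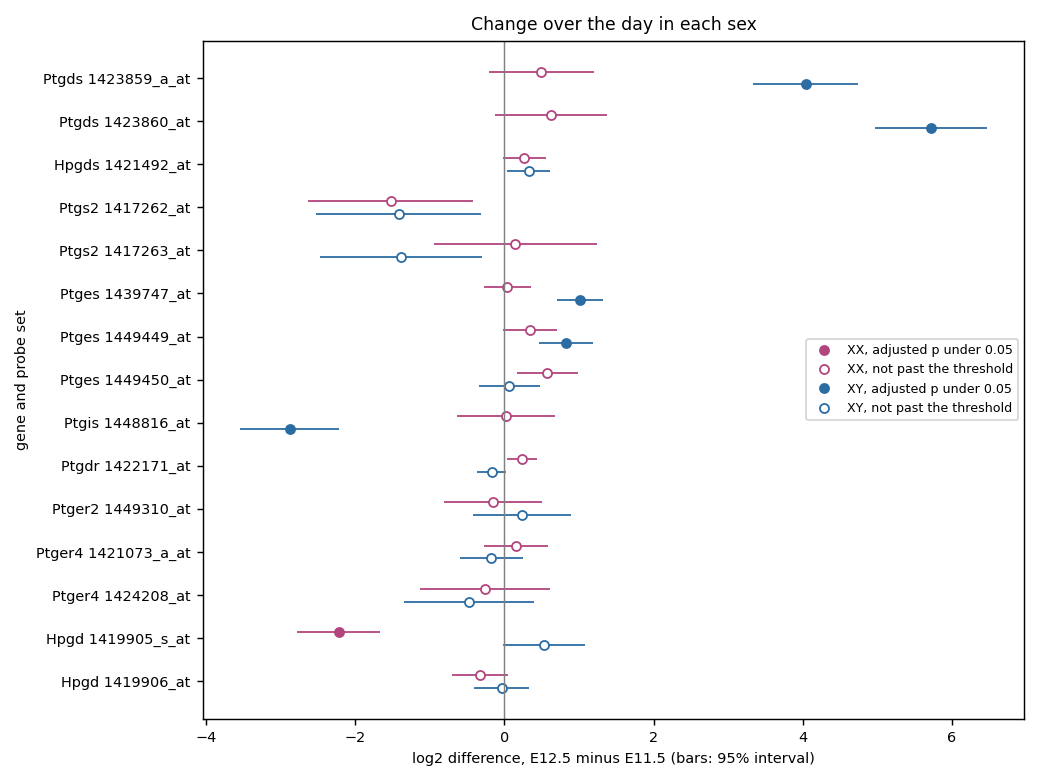
Log2 change from E11.5 to E12.5 at each of the 15 probe sets in XX (magenta) and XY (blue), with 95% intervals from limma; filled points passed the threshold. In XY the Ptgds points lie at 4.04 and 5.72 and Ptgis at -2.88, while in XX the filled point is Hpgd at -2.22.

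Side by side at E12.5, XY cells had more signal for Ptgds, a synthase of prostaglandin D2, and less for that of prostacyclin, and XX cells had less for the degrading enzyme at 1 of its probe sets. Over the 9 genes, at the leading probe set of each, the median XY minus XX difference was -0.09 at E12.5 and the median size of the difference 0.39, beside a median size of 0.24 over all named genes. At E11.5 the median size was 0.24 for the 9 genes and 0.16 for all.

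The wider eicosanoid pathway was read from a list of 43 genes, of which 39 had a probe set (67 probe sets) and Pla2g4b, Ptges3, Akr1b3 and Ptgr3 had none with that single symbol. At E11.5 no gene of it was called between the sexes in limma, with 6 probe sets at an unadjusted p under 0.05. At E12.5, 2 genes were higher and 4 lower in XY, which is 6 of 39, beside 13.9% of all named genes. Over the day 4 rose and 1 fell in XX, beside 5.88% of all named genes called, and 4 rose and 1 fell in XY, beside 10.7%. Those counts are 15.4% of the 39 genes at E12.5 and 12.8% over the day in each sex. The count in XX was 0 without XX E12.5 pool 2, 0 without XX E12.5 pool 3 and 3 without XX E11.5 pool 3. Of all probe sets 0.493%, 0.414% and 1.35% were called in those fits, against 3.11% with every pool. In XY the count was 2 in the absence of pool 3 of either day, and 3 in that of XY E12.5 pool 1 or 2. The sex count at E12.5 was 3 without XY E12.5 pool 3. The share of all probe sets called was lower in these fits too.

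Pla2g4a, the cytosolic phospholipase that frees arachidonic acid, had the smallest adjusted p of these 39 genes. It read 11.31, 11.19 and 11.67 in XX E11.5, 11.55, 11.57 and 11.25 in XY E11.5, 10.78, 10.79 and 10.60 in XX E12.5 and 9.68, 9.45 and 9.85 in XY E12.5. In XY it fell 3.46-fold over the day (95% interval 2.71 to 4.43; adjusted p = 0.00022) to 2.09-fold below XX (1.63 to 2.67; adjusted p = 0.0029). In XX the change was -0.66 (adjusted p = 0.054). The sex difference grew by -1.13 ± 0.23 (adjusted p = 0.037), a call that ended without 9 of the 12 pools, the exceptions being pool 3 of each E11.5 group and of XY E12.5, with values of -1.19 to -1.03 and adjusted p up to 0.097.

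Pla2g5, a secreted phospholipase, rose 3.37-fold in XY (95% interval 1.93 to 5.9; adjusted p = 0.02), from 6.85, 6.09 and 6.29 to 7.34, 8.76 and 8.39. Pla2g7, which breaks down platelet-activating factor, rose 1.72-fold in XY (adjusted p = 0.043). Anxa1, annexin A1, which is known to restrain phospholipase A2, rose 3.78-fold in XY (2.27 to 6.29; adjusted p = 0.0089), from 8.25, 7.94 and 8.41 to 9.80, 10.24 and 10.31, at 1 of its 2 probe sets. In XX the change of Anxa1 was 1.09 and not called (adjusted p = 0.096), but 1.54 and called without XX E11.5 pool 2 (adjusted p = 0.015). The call of Pla2g5 ended in the absence of pool 2 or 3 of either XY group (values 1.46 to 1.69, adjusted p up to 0.078). That of Pla2g7 ended in the absence of XX E12.5 pool 1 or of any XY pool except pool 2 of E11.5 (0.70 to 0.86, adjusted p up to 0.13).

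Of the listed reductases called for sex at E12.5, 2 were higher and 2 lower in XY, while Cbr1, Cbr3, Akr1b8 and Prxl2b were not called. Ptgr1, a reductase that acts after Hpgd, read 12.30, 12.19 and 12.08 in XX E12.5 and 12.94, 12.96 and 12.86 in XY E12.5, a 1.66-fold XY excess (95% interval 1.35 to 2.03; adjusted p = 0.008). Like Hpgd it fell in XX, by 1.69-fold from 12.91, 12.70 and 13.23 (adjusted p = 0.02), a call that ended without XX E12.5 pool 2 or 3 (-0.76 and -0.70; adjusted p = 0.077 and 0.089). Ptgr2, a related reductase, was at least 2.26-fold higher in XY at E12.5 at 1 of its 5 probe sets (adjusted p = 0.015), the XX mean lying within the range without target. Akr1c14, an aldo-keto reductase, read 5.99, 7.0 and 7.55 in XX E12.5 and 4.73, 3.78 and 3.81 in XY E12.5, and was thus lower in XY by at least 6.7-fold (adjusted p = 0.0026). Akr1c18, known to act on progesterone and prostaglandins, was 1.87-fold lower in XY at E12.5 (adjusted p = 0.018) and rose 1.86-fold in XX (adjusted p = 0.041).

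Akr1c14 rose at least 6.19-fold in XX (adjusted p = 0.013), and Cbr3, a carbonyl reductase gene, rose 2.77-fold in XX (adjusted p = 0.016). Ppard, a nuclear receptor for fatty acid products, was 1.82-fold lower in XY at E12.5 (adjusted p = 0.028) and rose 2.15-fold in XX (adjusted p = 0.024), at 1 of its 2 probe sets. Ptgr2 rose at least 2.3-fold in XY at 1429474_at (adjusted p = 0.017). The sex differences of Ptgr1 and Akr1c14 at E12.5 kept their call without any 1 pool, and the calls below did not. Without XX E12.5 pool 2 or 3 the rises in XX of Akr1c14 (adjusted p = 0.059 and 0.056, the second with a rise of 2.28) and Cbr3 (1.48 and 1.35; adjusted p = 0.064 and 0.076) were not called. The sex difference of Ppard ended without any 1 of the 6 E12.5 pools (-0.95 to -0.82, adjusted p up to 0.094) and its rise without XX E11.5 or XX E12.5 pool 2 or 3 (1.05 to 1.13, up to 0.087). The sex difference of Akr1c18 ended without XX E12.5 pool 3 and XY E12.5 pools 1 and 3 (-0.90 to -0.74, up to 0.07), and its rise without any XX pool or any E12.5 pool of XY (0.73 to 1.00, up to 0.14). For Ptgr2 the sex difference ended without pool 1 of either E12.5 group or XY E12.5 pool 3 (1.03 to 1.10, up to 0.062), and the XY rise without XY E11.5 pool 3 or XY E12.5 pool 1 or 3 (1.03 to 1.08, up to 0.072).

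**Figure D5:**
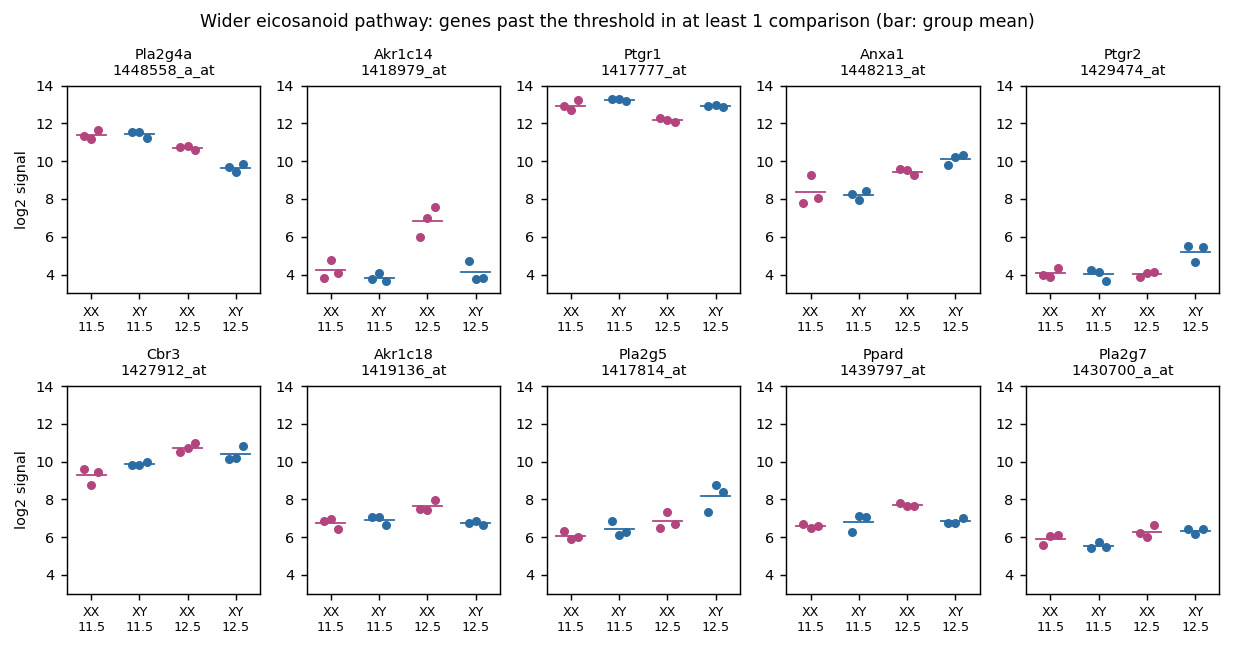
Log2 signal of each pool for the 10 genes of the wider pathway called in at least 1 comparison, with XX in magenta, XY in blue, bars at group means and sex and day on the x axis. Pla2g4a is lowest in the 3 XY E12.5 pools at 9.45 to 9.85, and Akr1c14 is highest in the 3 XX E12.5 pools at 5.99 to 7.55.

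Genes whose profile over the 12 arrays was most like that of a member were sought by Pearson correlation, for the 3 members called at the leading probe set. For Ptgds they were Tnfrsf12a (r = 0.994), Gstm6 (0.993) and Mybpc3 (0.991). Gstm6, for example, read 9.48, 10.37 and 10.49 in XY E12.5 and 5.51 to 6.77 elsewhere. For Ptgis they were Slitrk1 (0.996), Pld1 (0.993) and Dock4 (0.989), with Slitrk1 at 6.13, 4.66 and 6.20 in XY E12.5 and 10.60 to 12.43 elsewhere. For Hpgd they were Lpin2 (0.978), Stox2 (0.949) and Cbln4 (0.946), and Cbln4, a secreted cerebellin, read 6.06, 5.76 and 6.19 in XX E12.5 and 9.58 to 11.28 elsewhere. These values describe 12 arrays in 4 groups, in which any gene with a step in the same group scores high.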

How the data were processed

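Per the labels' protocols, RNA was extracted by PicoPure, put through 2 rounds of TargetAmp amplification and biotin-labelled. The authors deposited 1 table of values per probe set and array, taken as log2 signals because the largest is 14.5; how arrays were summarised and normalized is not given in the sources used here. Of 45037 rows, 798 were blank on all arrays and 1 on a single array, which left 44238. Symbols came from the platform annotation, updated by Entrez identifier from RefSeq GRCm38.p6 (34126 matched); 34328 probe sets held 1 symbol, 850 several and 9060 none, and only the first kind was named.

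limma 3.58.1 in R 4.3.3 (lmFit, eBayes) was fitted to 4 group means over 12 arrays, with 8 residual degrees of freedom, and checked on simulated data. Calls used a Benjamini-Hochberg adjusted p under 0.05, two-sided; all p-values are from limma. Where the lower mean lay within the Y-linked range, "at least" stands before the fold. Folds over means just above that range carry no such mark, though signal without target can lie there too. Errors are SE unless stated otherwise. From the wider list, genes called in any comparison were named, up to 12, and for each member called at its leading probe set the 3 most similar genes. Alternatives were a filter on dim probe sets, quantile normalization, median centring, a trended prior, array weights, the pool number as a block, the compared arrays alone, probe sets averaged by gene, and each array left out. Members and lists were chosen with earlier results of these data known. Figures were drawn with matplotlib 3.10.9.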

Additional observations from a re-analysis of the deposited data

Results flagged for a closer look

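The difference between the sexes itself differed between E11.5 and E12.5 at 5 probe sets of the members and at 1 of the wider pathway (interaction term in limma, adjusted p under 0.05). For Ptgds it grew by 3.55 log2 units at 1423859_a_at (adjusted p = 0.0038) and by 5.10 at 1423860_at (adjusted p = 0.00096), and in each case the XY E12.5 pools were the ones that stood apart. For Hpgd at 1419905_s_at it grew by 2.76 (adjusted p = 0.0041), with the XX E12.5 pools apart. For Ptgis it changed by -2.91 (adjusted p = 0.0075) and for Pla2g4a by -1.13 (adjusted p = 0.037), both with XY E12.5 low. For Ptges at 1439747_at it changed by 0.97 (adjusted p = 0.04). No group held more than 3 pools, so single pools were not screened for outlying values.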

How the results depend on the processing

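The sex difference at E12.5, the change in XY and the interaction of Ptgds, at both probe sets, and of Ptgis kept direction and call under every alternative tried, as did the sex difference, XX change and interaction of the leading Hpgd probe set. Of 305 recomputed values for the 16 called differences of members, 286 kept their call, 19 lost it and 0 turned, and those lost were all of Ptges. The count of members called was 3 with probe sets averaged by gene, both for the sex difference at E12.5 and for the interaction, where it counts genes and not probe sets. Leaving out 1 pool gave 0 called members at E11.5, 4 to 5 for the sex difference at E12.5, 1 in XX, 4 to 5 in XY and 4 to 5 for the interaction.

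Genes of the wider pathway called numbered 12 with array weights for the sex difference at E12.5 (main value 6), 3 with the compared arrays alone and 8 with gene means in XX (5), 3 with the compared arrays alone in XY (5), and 2 with array weights, 0 with the replicate block and 3 with gene means for the interaction (1). Leaving out 1 pool gave 0 at E11.5, 3 to 9 at E12.5, 0 to 7 in XX, 2 to 5 in XY and 0 to 2 for the interaction.

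The share of all probe sets called was 0.109%, 15.4%, 7.37%, 12.9% and 4.54% when dim probe sets were dropped (in the order sex at the first day, sex at the second, XX, XY, interaction), against 0.0678%, 7.72%, 3.11%, 6.16% and 1.75%. It was 13.1% and 5.44% with array weights for sex at E12.5 and XX, and 0.0271% and 1.41% with the compared arrays alone for sex at E11.5 and XX. With averaging by gene, which tests fewer features, it was 0.122%, 13.1%, 7.1% and 4.68% for all but XY. Leaving out 1 pool gave 0.052% to 0.129%, 4.64% to 8.51%, 0.414% to 4.4% (lowest without XX E12.5 pool 3), 2.89% to 6.96% (lowest without XY E11.5 pool 3) and 0.911% to 2.88%. The causes were not tested.

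The pool number did not pair the samples: residuals of same-numbered pools correlated at -0.40 to 0.23, and 4 of 18 pairs exceeded 0.1. With the replicate block, 0, 5, 1, 5 and 5 members were called, as without it, and 0.0769%, 6.97%, 2.71%, 5.85% and 1.36% of all probe sets; in the wider pathway it ended the calls of Akr1c18 in XX, Pla2g7 in XY and Pla2g4a for the interaction. A fit to the compared arrays alone ended the calls of Ptgr1, Akr1c18, Cbr3 and Akr1c14 in XX (adjusted p = 0.087, 0.097, 0.054 and 0.053) and of Pla2g5 and Ptgr2 in XY (0.082 and 0.083). Signal near background limits Ptgs2, Ptger2, 1 Ptger4 probe set, Hpgds and Ptgdr.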
